A study of Homo sapiens with 5 samples.

Results

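PHGDH, PSAT1, PSPH, SHMT2, MTHFD2, ASNS, SLC7A5 and SLC3A2 are 8 human genes of serine, asparagine and one-carbon metabolism. They were chosen by name, as enzymes and carriers known to be controlled by the stress transcription factor ATF4. All 8 had a row in both deposited tables, among 23340 genes counted over exons and 22009 genes counted over introns.

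The study transfected A549 cells, an established human lung carcinoma epithelial line, and sequenced total RNA after removal of ribosomal RNA. It concerns double-stranded RNA formed by repeats in introns and between genes, the enzyme RNase L, which cuts RNA, and the interferon system. The libraries were 23N randomer oligo at 9 h and at 16 h, control oligo at 9 h and at 16 h, and mock transfection at 16 h. Either oligo was given at 50 nM with Lipofectamine 2000, and mock cells received the lipid reagent without oligo. For the oligos, neither sequence nor chemistry is given in the sources used here. Each of the 5 groups was 1 library. A comparison at a single time therefore had no replicate check. The tests below rest on the spread left between the 2 times after a common time difference is removed. edgeR shares information on this spread over all genes, so a gene's SE need not follow its own difference between the times. The labels do not state that the times were separate cultures.

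Serine is made from the glycolytic intermediate 3-phosphoglycerate by PHGDH, PSAT1 and PSPH acting in that order. SHMT2 and MTHFD2 then carry a carbon unit from serine through the folate pathway of mitochondria, ASNS makes asparagine from aspartate and glutamine, and SLC7A5 with SLC3A2 forms the cell-surface exchanger that imports leucine and other large neutral amino acids. When amino acids run short or unfolded proteins build up, kinases phosphorylate the initiation factor eIF2, translation of ATF4 increases, and ATF4 raises transcription of these genes. Double-stranded RNA can start the same cascade through the kinase PKR.

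Levels are given as CPM, the counts scaled to a common library size, where a library's size is its exon count over tested genes times a composition factor (TMM), for introns too. Exon counts summed to 1476223 to 1792192 in the randomer libraries, 2596995 to 2629053 in the control oligo libraries and 1957361 in the mock library. Introns held 49.7% and 56.9% of all counts in the randomer libraries at 9 h and 16 h, against 22.0% and 22.9% in the control oligo libraries and 23.6% in the mock library. The ribosomal precursor RN45S took 16.4% of exon counts in the randomer library at 16 h, against 6.78% to 11.5% elsewhere. Of 7 epithelial markers, those of A549 among them, 5 to 7 had counts in a given library. EPCAM was at 0 in all but the randomer library at 16 h, and KRT19 had 7 and 15 counts with randomer and 0 elsewhere. The 7 markers summed to 2817 to 3603 CPM in the randomer libraries, 4958 to 5142 in control oligo libraries and 4584 in mock. Most of this came from KRT8, KRT18 and ALDH1A1, while CDH1 had 14 to 24 counts and AKR1C1 5 to 55. Markers of other lineages had lower sums, which also differed. The 4 leukocyte markers summed to 39.5 to 45.5 CPM in randomer libraries, 4.54 to 6.09 in control oligo libraries and 6.49 in mock. CD68 had 12 to 60 counts, and PTPRC and CD3E were at 0 throughout. The 3 endothelial markers summed to 30.5 and 57.5 in the randomer libraries and were at 0 in the others. The 3 fibroblast markers summed to 81.7 to 145, 105 to 193 and 154 in the randomer, control oligo and mock libraries. COL1A2 was at 0, and COL1A1 had 115 to 504 counts, more than EPCAM, KRT19, CDH1 or AKR1C1. The part of these differences in the results below was not tested.

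Because these are bulk samples, fewer cells expressing a gene and less RNA per cell cannot be told apart.

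The start of ASNS is shown first because its control by ATF4 is well described: a composite element there binds ATF4. RefSeq start sequences on GRCh38.p14 were found for 6 of the 8 genes, with 9 windows in all, and 250 bases before the start are printed, on the strand of the gene. Capitals mark the core element TGATGNAA, which reads TGATGAAA in ASNS and lies 68 to 61 bases before the start, and the neighbouring GTTACA, 48 to 43 bases before it.
ASNS, chr7:97872409-97872658, minus strand: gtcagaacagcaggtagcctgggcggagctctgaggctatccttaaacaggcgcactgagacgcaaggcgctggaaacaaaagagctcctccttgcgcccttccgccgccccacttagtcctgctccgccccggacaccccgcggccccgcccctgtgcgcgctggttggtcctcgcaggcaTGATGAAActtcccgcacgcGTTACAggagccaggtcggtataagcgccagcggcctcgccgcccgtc
Both strands of all windows were searched. TGATGNAA was found in 3.14% and GTTACA in 5.59% of 35116 human RefSeq start windows of the same length. Among the windows of the 6 genes, only this ASNS window held either. PSPH and SHMT2 had no window, and bases after the start were not searched.

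The starts of PSAT1 and PHGDH are shown because these were the members whose exon counts fell. Capitals mark CCAAT, the motif bound by NF-Y, which was found on either strand in 32% of the 35116 windows.
PSAT1, chr9:78296875-78297124, plus strand: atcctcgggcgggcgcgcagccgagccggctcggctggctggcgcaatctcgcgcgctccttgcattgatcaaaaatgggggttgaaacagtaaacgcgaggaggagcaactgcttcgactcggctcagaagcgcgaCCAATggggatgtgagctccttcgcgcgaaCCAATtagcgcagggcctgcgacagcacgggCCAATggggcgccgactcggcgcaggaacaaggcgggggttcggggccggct
PHGDH, chr1:119711684-119711933, plus strand: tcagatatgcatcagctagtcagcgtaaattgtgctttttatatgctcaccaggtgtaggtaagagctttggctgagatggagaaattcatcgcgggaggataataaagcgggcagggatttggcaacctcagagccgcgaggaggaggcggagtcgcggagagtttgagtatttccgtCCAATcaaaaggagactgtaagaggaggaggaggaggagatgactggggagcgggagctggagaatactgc
The PSAT1 window held CCAAT at 113 to 109, 83 to 79 and 52 to 48 bases before the start, and the PHGDH window at 71 to 67. One of the windows of SLC3A2 held it on the other strand, and MTHFD2 held it at 184 to 180 and 74 to 70 bases before the start. None of the matches overlapped another motif, and a match is only a match of letters.

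By exon counts, 2 of the 8 genes fell with randomer against control oligo: PSAT1, with 0.455 times the control oligo level, and PHGDH, with 0.489 times. PHGDH is the first and PSAT1 the second enzyme of serine synthesis. The other 6 did not pass, and PSPH, the last enzyme of the same path, had a fitted change of 1.30 on the log2 scale. Not passing does not show a lack of change. In simulated data with fewer changed genes, drawn over all count levels, the exon test recovered 10.5% of 2-fold changes. Of all 11407 genes tested by exon counts, edgeR called 3.11% lower and 6.79% higher at an adjusted p under 0.05. The median fitted log2 change was -0.46 over the 8 genes and 0.04 over all genes. At an unadjusted p under 0.05, 5 of the 8 were lower and 1 higher, against 8.83% and 12.7% of all genes, and DESeq2 called 2 lower and 0 higher, against 3.54% and 7.16%.

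**Figure D1:**
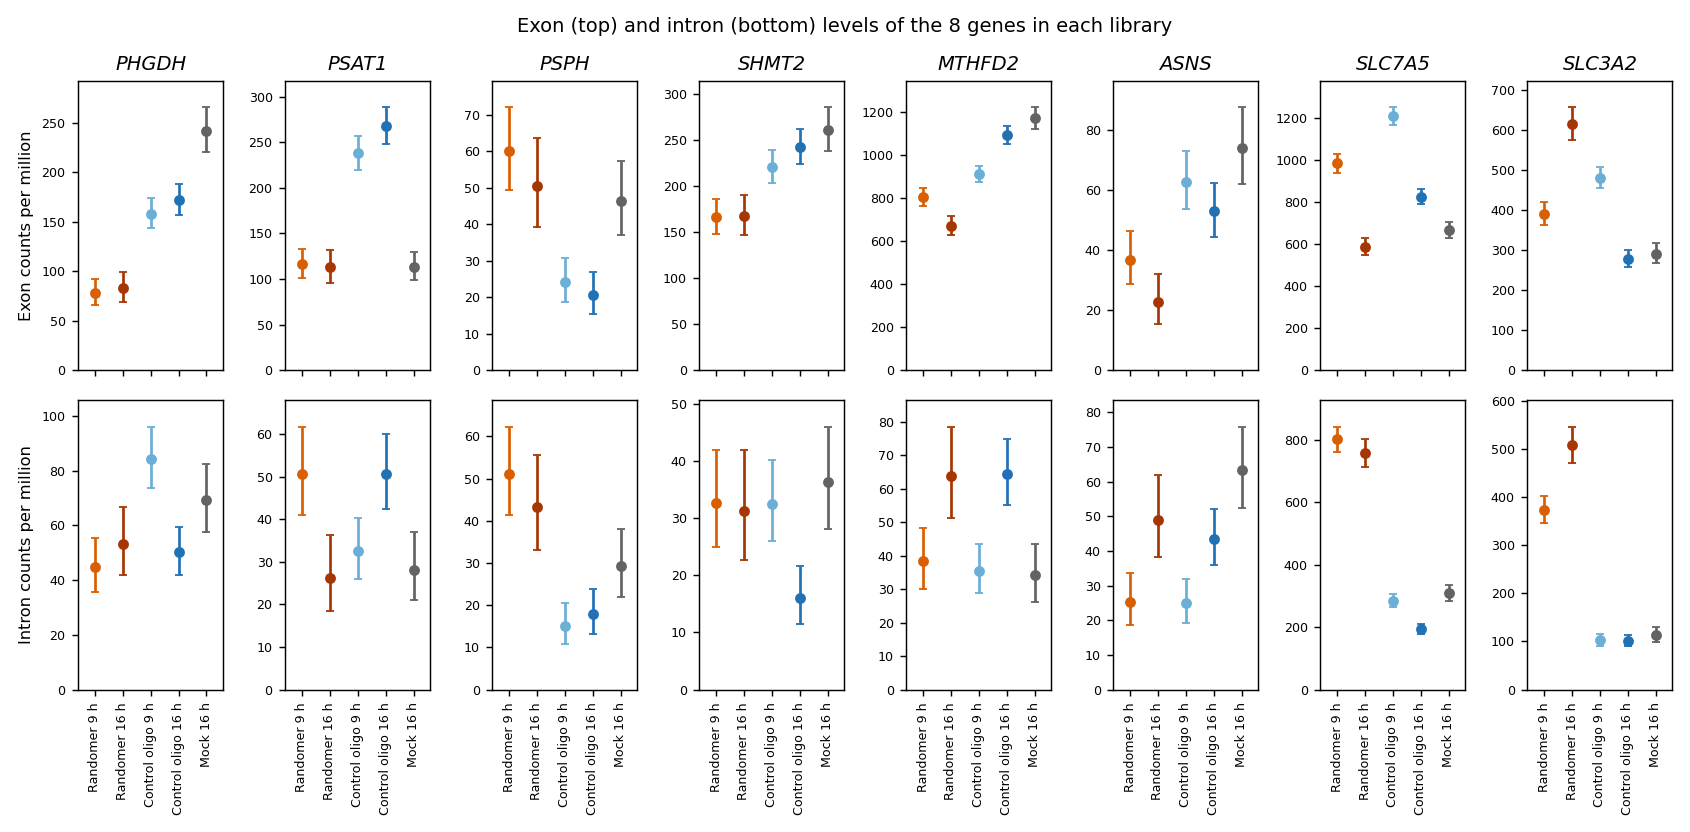
Exon (top) and intron (bottom) levels in CPM of the 8 genes, each point 1 library with a 95% counting interval, randomer left of control oligo and mock last. By exons, for PHGDH, PSAT1, SHMT2, MTHFD2 and ASNS both randomer points lie below both control oligo points, and for PSPH both lie above.

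PHGDH encodes phosphoglycerate dehydrogenase, which takes the first step from glycolysis into serine. Its exon level was 78.5 CPM at 9 h and 83.1 CPM at 16 h with randomer, 158 and 172 CPM with control oligo, and 242 CPM in mock cells. Both randomer libraries were below both control oligo libraries, and the mock library was the highest of all. The fitted log2 change was -1.03 (SE 0.31, edgeR adjusted p = 0.0173). The log2 ratio of randomer over control oligo was -1.01 at 9 h (95% counting interval -1.29 to -0.74) and -1.05 at 16 h (-1.36 to -0.75), nearly the same at both times. Over mock at 16 h, randomer stood at -1.54 (-1.85 to -1.25) and control oligo at -0.49 (-0.69 to -0.30). The call was lost without the time term (edgeR adjusted p = 0.0529) and in each of the 4 fits that left out 1 oligo library along with that term (edgeR adjusted p = 0.115 to 0.224), with log2 changes of -1.09 to -0.97.

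PSAT1 encodes phosphoserine aminotransferase, the second enzyme. It had 116 CPM at 9 h and 113 CPM at 16 h with randomer, 238 and 268 CPM with control oligo, and 114 CPM in mock cells. The groups with oligo did not overlap, and the mock library lay with the randomer libraries. The fitted log2 change was -1.14 (SE 0.27, edgeR adjusted p = 0.00186). At 16 h the log2 ratio of randomer over mock was -0.01 (-0.32 to 0.30), while control oligo over mock was 1.24 (1.01 to 1.47), so of the oligos only control oligo stood apart from mock. With mock placed in the control group the change was -0.88 and the call was lost (edgeR adjusted p = 0.0961). In fits without 1 library and the time term it was also lost without the randomer library at 16 h (edgeR adjusted p = 0.0814) and without the control oligo library at 16 h (edgeR adjusted p = 0.121).

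PSPH, phosphoserine phosphatase, releases free serine. It had 60.0 CPM at 9 h and 50.4 CPM at 16 h with randomer, 24.2 and 20.6 CPM with control oligo, and 46.5 CPM in mock cells. The randomer and control oligo libraries did not overlap, and mock lay close to randomer, the mirror image of PSAT1. The fitted log2 change of 1.30 (SE 0.49) did not pass (edgeR adjusted p = 0.0795). At 16 h, randomer over mock was 0.12 (-0.36 to 0.59) and control oligo over mock was -1.18 (-1.70 to -0.67). PSPH had only 54 to 114 exon counts per library.

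The balance of the 3 enzymes can be read within each library, with no scaling between libraries, as a ratio of counts per kilobase of exon. The pairs were chosen after their values were seen, so these ratios are a description. PSAT1 over PHGDH was 1.80 and 1.65 with randomer, 1.83 and 1.89 with control oligo, and 0.570 in the mock library. Thus either oligo stood apart from mock, and the oligos had overlapping intervals. PSPH over PSAT1 was 0.518 and 0.448 with randomer, 0.102 and 0.0771 with control oligo, and 0.411 in the mock library. Here randomer and mock had overlapping intervals and control oligo stood apart.

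**Figure D2:**
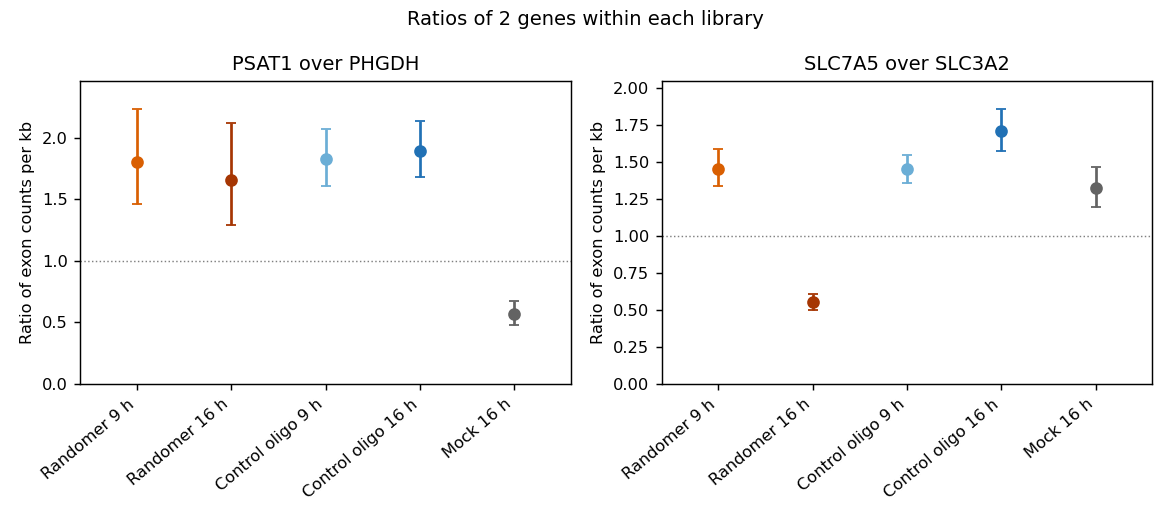
Ratios of exon counts per kilobase within each library for PSAT1 over PHGDH (left) and SLC7A5 over SLC3A2 (right), with 95% counting intervals, randomer left of control oligo and mock last. PSAT1 over PHGDH is below 1 only in mock (0.570), and SLC7A5 over SLC3A2 only in the randomer library at 16 h (0.551).

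SHMT2 and MTHFD2, the mitochondrial one-carbon enzymes, did not pass. SHMT2, serine hydroxymethyltransferase, had 166 and 167 CPM with randomer, 220 and 243 CPM with control oligo, and 261 CPM in mock cells. Its fitted log2 change was -0.47 (SE 0.26, edgeR adjusted p = 0.294). MTHFD2, which oxidises the folate-bound carbon unit, had 802 and 671 CPM with randomer, 910 and 1091 CPM with control oligo, and 1169 CPM in mock cells. In both genes each randomer library was below each control oligo library and mock was the highest, as in PHGDH. For MTHFD2 the fitted change was -0.44 (SE 0.20, edgeR adjusted p = 0.16), and the ratio over control oligo was -0.18 (-0.28 to -0.09) at 9 h and -0.70 (-0.81 to -0.59) at 16 h. MTHFD2 over SHMT2 per kilobase stayed between 2.73 and 3.29 in the 5 libraries.

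ASNS, asparagine synthetase, is the member whose start held TGATGAAA and GTTACA. It had 36.9 and 22.7 CPM with randomer, 62.8 and 52.9 CPM with control oligo, and 74.1 CPM in mock cells. The randomer libraries were below all others. The fitted log2 change of -0.98 (SE 0.47) did not pass (edgeR adjusted p = 0.196). With 32 counts in the randomer library at 16 h, ASNS had the fewest exon counts of any member in any library. Its ratio over control oligo was -0.77 (-1.19 to -0.36) at 9 h and -1.22 (-1.82 to -0.66) at 16 h, and over mock -1.71 (-2.31 to -1.14) at 16 h.

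Exon levels of both carrier subunits overlapped between randomer and control oligo. SLC7A5, the transporting subunit, had 984 CPM at 9 h and 586 CPM at 16 h with randomer, 1208 and 825 CPM with control oligo, and 667 CPM in mock cells. It was lower at 16 h than at 9 h with either oligo, with log2 ratios of -0.75 for randomer and -0.55 for control oligo. Its fitted log2 change was -0.39 (SE 0.19, edgeR adjusted p = 0.215). SLC3A2, the glycoprotein subunit that brings SLC7A5 to the membrane, had 391 CPM at 9 h and 615 CPM at 16 h with randomer, 482 and 279 CPM with control oligo, and 292 CPM in mock cells. At 9 h randomer was below control oligo, with a log2 ratio of -0.30 (-0.43 to -0.17), and at 16 h it was above it, at 1.14 (0.996 to 1.28), and above mock, at 1.08 (0.92 to 1.23). The fitted change over both times was 0.42 (SE 0.24, edgeR adjusted p = 0.313), and the difference between the times was not tested. DESeq2 gave this change as 0.44 with a larger SE of 0.68. SLC7A5 over SLC3A2 per kilobase was 1.45 at 9 h and 0.551 at 16 h with randomer, 1.45 and 1.71 with control oligo, and 1.32 in the mock library. The 16 h randomer library was the only one in which SLC3A2 was the higher subunit.

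Across the 8 genes, the exon levels of both randomer libraries were below both control oligo libraries for 5 and above both for 1. This was so for 23.8% and 27.6% of all 11407 genes, so a lack of overlap by itself was common. Per kilobase of exon the mean level over the 5 libraries was highest for MTHFD2 (208 CPM per kilobase), then SLC7A5 (186), SLC3A2 (155), PSAT1 (77.6), SHMT2 (69.8), PHGDH (55.2), ASNS and PSPH, which spanned 9.12 to 29.8 and 9.44 to 27.5. The ranges over the libraries overlapped for every pair of neighbours in that order.

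**Figure D3:**
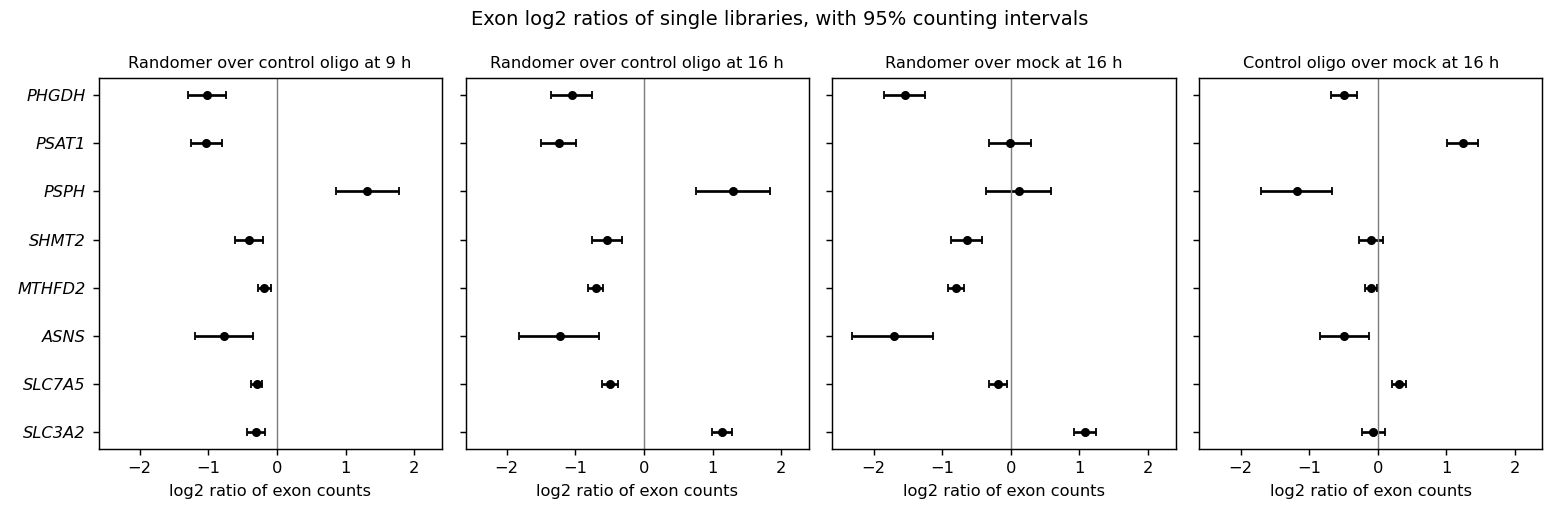
Exon log2 ratios of the 8 genes for single pairs of libraries, with 95% counting intervals and a line at 0. PHGDH stays near -1 over control oligo at both times, PSAT1 lies near 0 over mock, and SLC3A2 is on opposite sides of 0 at 9 h and 16 h.

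At a single time, genes were counted as past a threshold when they differed at least 2-fold and the pair averaged 20 or more counts, with no test. Randomer over control oligo at 9 h put 2 members lower (PHGDH and PSAT1) and 1 higher (PSPH), against 10.3% lower and 14.4% higher among all genes. At 16 h it put 3 lower (ASNS added) and 2 higher (PSPH and SLC3A2), against 13.3% and 17.6%. Randomer over mock at 16 h put 2 lower (PHGDH and ASNS) and 1 higher (SLC3A2), against 13% and 18.8%. Control oligo over mock put PSPH lower and PSAT1 higher, against 7.31% and 9.56%. PHGDH and ASNS were therefore lower with randomer against either control oligo or mock at 16 h, whereas PSAT1 and PSPH were past 2-fold only against control oligo. These comparisons at 16 h share libraries and are not independent. Between the times, none of the 8 differed 2-fold by exon counts with either oligo. Among all genes 10.9% were higher and 8.5% lower at 16 h with randomer, and 8.37% and 7.3% with control oligo.

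Intron counts, to which RNA that is not yet spliced contributes, gave another order. SLC3A2 and SLC7A5 rose with randomer, 4.28-fold and 3.33-fold, and the other 6 did not pass. This stands against 47.6% of 11983 genes called higher and 0.0501% lower by introns. The median log2 change over the 8 genes was 0.29 and over all genes 1.96. Set against that median, SLC3A2 was 0.13 above it and SLC7A5 0.23 below it (-0.23), so both carriers lay near the median gene, and PSPH stood at -0.45. The enzymes other than PSPH lay further below the median: PHGDH -2.38, PSAT1 -2.11, MTHFD2 -1.91, ASNS -1.87 and SHMT2 -1.49.

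SLC3A2 had 373 and 508 intron CPM with randomer, 102 and 101 CPM with control oligo, and 114 CPM in mock cells. Its fitted log2 change was 2.10 (SE 0.43, edgeR adjusted p = 0.000494). SLC7A5 had 800 and 756 intron CPM with randomer, 284 and 193 CPM with control oligo, and 309 CPM in mock cells. For both genes the randomer libraries were above all others. The fitted change of SLC7A5 was 1.73 (SE 0.40, edgeR adjusted p = 0.00132), and its call was lost without the control oligo library at 16 h (edgeR adjusted p = 0.105).

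PSPH had 51.1 and 43.3 intron CPM with randomer, 15.1 and 17.9 CPM with control oligo, and 29.2 CPM in mock cells. It was above both controls in each randomer library, as were 76% of all genes, and did not pass (log2 change 1.51, SE 0.71, edgeR adjusted p = 0.087), although DESeq2 called it higher. The intron levels of the other 5 overlapped between randomer and control oligo. PHGDH had 44.8 and 53.3 intron CPM with randomer, 84.3 and 50.3 CPM with control oligo, and 69.2 CPM in mock cells (edgeR adjusted p = 0.568). PSAT1 had 50.5 and 26.3 CPM with randomer, 32.5 and 50.6 CPM with control oligo, and 28.1 CPM in mock cells, which puts randomer above control oligo at 9 h and below it at 16 h. SHMT2, MTHFD2 and ASNS had 42 to 169 intron counts in each library and fitted log2 changes of 0.48, 0.05 and 0.10. At single times, 3 members (PSPH, SLC7A5 and SLC3A2) were at least 2-fold higher over control oligo by introns at 9 h and at 16 h, against 67.3% and 76.5% of all genes. None was as much lower, against 2.83% and 2.05% of all genes.

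The size of the intron change depends on the scale. With the intron table's own TMM factors in place of exon scaling, the all-gene median was 0.32, 15.5% of genes were called higher and 5.13% lower. Then 0 members were higher and 4 fell: PHGDH (log2 change -2.06, edgeR adjusted p = 0.000476), PSAT1 (-1.78, 0.019), MTHFD2 (-1.60, 0.0167) and ASNS (-1.55, 0.0463). On that scale SLC3A2 stood at 0.45 and SLC7A5 at 0.09, neither called.

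**Figure D4:**
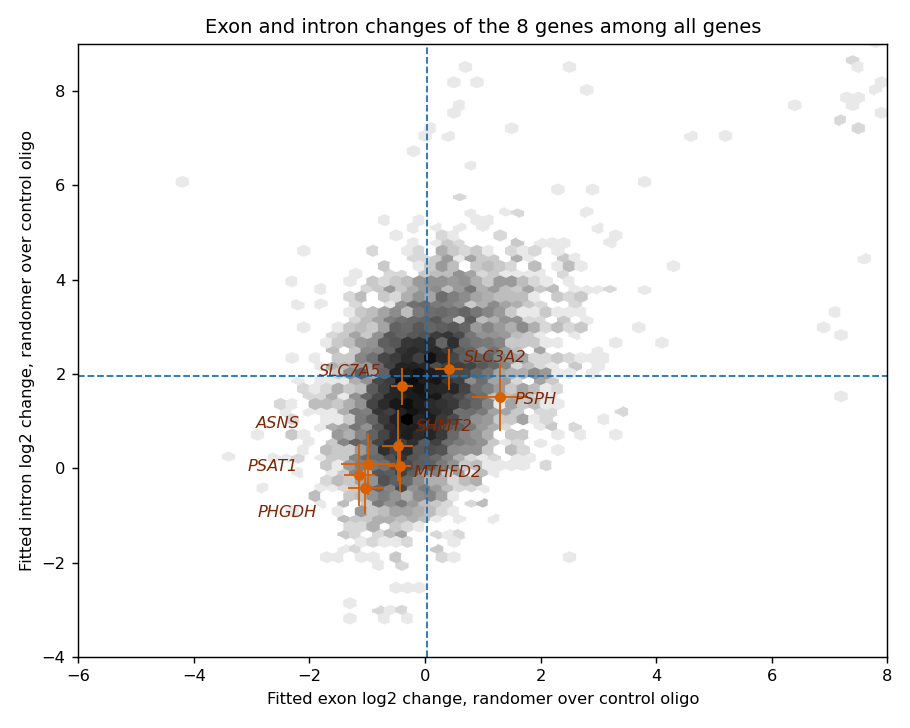
Fitted intron log2 change against fitted exon log2 change, randomer over control oligo, for all genes tested by both (grey, darker where denser) and the 8 genes (orange, bars 1 SE); dashed lines mark the medians over all genes of each test, 0.04 by exons and 1.96 by introns, and a few genes beyond the axes are not drawn. SLC3A2 and SLC7A5 lie near the intron median, and PHGDH, PSAT1, ASNS, MTHFD2 and SHMT2 below it.

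The number of intron counts per exon count compares both kinds of read within a library. For SLC7A5 it was 0.814 and 1.29 with randomer, 0.235 and 0.234 with control oligo, and 0.463 in the mock library. For SLC3A2 it was 0.953 and 0.826 with randomer, 0.212 and 0.363 with control oligo, and 0.391 in the mock library. Both were higher in each randomer library than in any other. The ratio rose 4.37-fold for SLC7A5 (log2 change 2.13, SE 0.41, edgeR adjusted p = 0.000622) and 3.20-fold for SLC3A2 (1.68, SE 0.45, edgeR adjusted p = 0.00649). Over all genes the ratio was 0.987 and 1.32 with randomer, 0.282 and 0.298 with control oligo, and 0.308 in the mock library, and 32.4% of 9295 genes were called higher and 0.172% lower.

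The ratio did not pass for the 6 enzymes, which had fitted log2 changes of 0.21 (PSPH) to 1.09 (ASNS). The median was 0.97 over the 8 genes and 1.62 over all genes. ASNS had 2.16 intron counts per exon count with randomer at 16 h, the highest value of any member in any library, against 0.686 with randomer at 9 h, 0.398 and 0.820 with control oligo and 0.854 in the mock library. MTHFD2 had the lowest ratios, 0.0479 and 0.0952 with randomer, 0.0391 and 0.0590 with control oligo, and 0.0292 in the mock library. The call of SLC7A5 was lost without the randomer library at 16 h (edgeR adjusted p = 0.0659), and that of SLC3A2 without the randomer library at 9 h (0.0696), the randomer library at 16 h (0.0897) or the control oligo library at 9 h (0.17). With TMM factors of each table, 1.23% of genes were called higher and 0.635% lower, and 0 of the 8 genes.

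Some members share their place with other genes, and the sources used here do not say whether counting used the strand. SLC3A2 lies within 1 kb of SNHG1, a snoRNA host gene on the other strand with 4575 and 2780 intron counts with randomer, 625 and 639 with control oligo and 535 in the mock library. By exons SNHG1 rose (log2 change 1.49, edgeR adjusted p = 0.000216). The snoRNA gene SNORD26, also within 1 kb of SLC3A2, had 819 and 664 exon counts with randomer, 262 and 371 with control oligo and 239 in the mock library, and rose (log2 change 1.93, edgeR adjusted p = 2.17e-09). SNORD25 there (0.43, edgeR adjusted p = 0.653), CCT6A within 1 kb of PSPH (-0.49, 0.167) and ZNF697 within 1 kb of PHGDH (0.86, 0.581) did not pass. MTHFD2 overlaps SLC4A5 on the other strand, which had 183 and 186 intron counts with randomer, 0 and 11 with control oligo and 17 in the mock library. SHMT2 overlaps NDUFA4L2 on the other strand, with 16 and 55 intron counts with randomer, 0 and 1 with control oligo and 0 in the mock library. The part of these neighbours in the members' counts was not tested. By name, the annotation holds 4 pseudogenes of PSAT1, 7 of MTHFD2, 4 of ASNS, 1 of PSPH and 2 of SLC7A5, so a share of these genes' reads is uncertain. The SLC7A5 copies had 0 to 15 exon counts in any library.

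The genes around these pathways were read from 6 lists, without the 8 members. The exon calls in each list stand against 3.11% lower and 6.79% higher among all genes, with an all-gene median of 0.04. Of 21 other one-carbon, folate and glycine genes tested, 2 fell by exons and 19 did not pass, with a median log2 change of -0.35. The 2 were enzymes of purine synthesis, which the list also holds. PPAT, which commits ribose to purine synthesis, had 35.3 and 50.4 CPM with randomer, 91.9 and 114 CPM with control oligo, and 59.5 CPM in mock cells, 2.42-fold lower than control oligo (SE 0.38 on the log2 scale, edgeR adjusted p = 0.0185). PAICS, which acts later in that path, had 276 and 195 CPM with randomer, 493 and 532 CPM with control oligo, and 461 CPM in mock cells. Its fitted change on the log2 scale was -1.14, with SE 0.23 and an edgeR adjusted p of 0.000204. For both genes the randomer libraries were below all others. The call of PPAT was lost with mock placed in the control group and without the time term, and that of PAICS was kept in all 8 alternative fits on the full set of oligo libraries. In the 4 fits without 1 library and the time term, PPAT was called in 0 (edgeR adjusted p = 0.0861 to 0.288), and PAICS was lost without the randomer or the control oligo library at 16 h (0.00938 to 0.0852 over the 4). ALDH1L2, which oxidises formyl folate in mitochondria, stood at -0.76 on the log2 scale without passing (edgeR adjusted p = 0.244).

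Of 14 other amino acid synthesis genes, 2 fell and 12 did not pass (median -0.06). GOT2, the mitochondrial aspartate aminotransferase, had 125 and 63.2 CPM with randomer, 206 and 155 CPM with control oligo, and 111 CPM in mock cells, 1.99-fold lower (SE 0.30, edgeR adjusted p = 0.019). BCAT1, the cytosolic branched-chain aminotransferase, had 607 and 429 CPM with randomer, 895 and 773 CPM with control oligo, and 937 CPM in mock cells, 1.63-fold lower (SE 0.21, edgeR adjusted p = 0.0147). BCAT1 was below mock in both randomer libraries, whereas the mock level of GOT2 lay between the randomer libraries. Of 15 other amino acid carriers, SLC38A1, a glutamine transporter, fell 1.53-fold (SE 0.18, edgeR adjusted p = 0.0173), with 903 and 916 CPM with randomer, 1435 and 1354 CPM with control oligo, and 1402 CPM in mock cells. The other 14 did not pass, and the median was 0.10. Named for the size of their log2 change alone, without passing, were the glutamate dehydrogenase GLUD1 (-0.54, edgeR adjusted p = 0.433), the mitochondrial BCAT2 (0.47, 0.65), the serine and alanine carrier SLC1A4 (0.85, 0.264), the glutamine carrier SLC38A2 (0.47, 0.181) and the mitochondrial serine carrier SFXN1 (-0.45, 0.36). Without the time term, GOT2, BCAT1 and SLC38A1 lost their calls, and SLC38A1 did so with library totals too. In the 4 fits that also left out 1 library, GOT2 and BCAT1 kept their calls only without the randomer library at 9 h, and SLC38A1 was called in 0 (edgeR adjusted p = 0.0825 to 0.435).

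Among 20 other ATF4 targets and stress effectors, 5 rose by exons and 15 did not pass, with a median of 0.34. ATF3, a transcription factor of the stress response, had 42.1 and 164 CPM with randomer, 6.05 and 2.67 CPM with control oligo, and 6.49 CPM in mock cells (edgeR adjusted p = 3.57e-09). DDIT3, the factor also called CHOP, had 61.1 and 161 CPM with randomer, 27.2 and 12.6 CPM with control oligo, and 36.8 CPM in mock cells (edgeR adjusted p = 6.81e-05). For both genes all other libraries were lower than the randomer ones. The remaining 3 were PPP1R15A, which directs the phosphatase of eIF2, SESN2, a leucine sensor, and VEGFA, 2.77-fold higher (edgeR adjusted p = 0.0186), whose call was lost without the time term and with mock placed in the control group. ATF4 itself, the regulator that this list is named for, did not pass, with a fitted log2 change of 0.19 (SE 0.25, edgeR adjusted p = 0.752). In the 4 fits without 1 library and the time term, PPP1R15A kept its call in 4. ATF3, DDIT3 and SESN2 lost theirs without the randomer library at 16 h, SESN2 also without the control oligo library at 16 h, and VEGFA was called in 0. The difference between the effectors and the 8 biosynthetic genes was not tested.

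Of 12 kinases, phosphatase subunits and exchange factors around eIF2, PPP1R15B, the constitutive phosphatase subunit, rose 1.77-fold (SE 0.24, edgeR adjusted p = 0.016), a call lost without the time term. EIF2AK1, the heme-regulated kinase, fell 2.73-fold at the edge of the threshold (SE 0.50, edgeR adjusted p = 0.0496). Its level was 29.5 and 14.2 CPM with randomer, 50.3 and 65.9 CPM with control oligo, and 89.3 CPM in mock cells, and its call was lost in 5 of the 8 alternative fits. Without 1 library and the time term, EIF2AK1 was called in 0 of 4 fits and PPP1R15B only without the randomer library at 9 h. The eIF2B subunit genes EIF2B3 (log2 change -0.94, edgeR adjusted p = 0.38) and EIF2B5 (-0.60, 0.647) did not pass. NARS and GARS, already counted among the stress effectors, were also in the synthetase list. Of 19 aminoacyl-tRNA synthetases, several of them known ATF4 targets, edgeR called 0, with a median of -0.29. At an unadjusted p under 0.05, 4 of them were lower and 0 higher, against 8.83% and 12.7% of all genes, and DESeq2 called 1 lower, against 3.54%. The asparagine enzyme NARS had a log2 change of -0.61 (edgeR adjusted p = 0.0816) and the serine enzyme SARS 0.60 (0.272), with MARS for methionine at -0.67 (0.0848) and WARS for tryptophan at -0.68 (0.332).

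**Figure D5:**
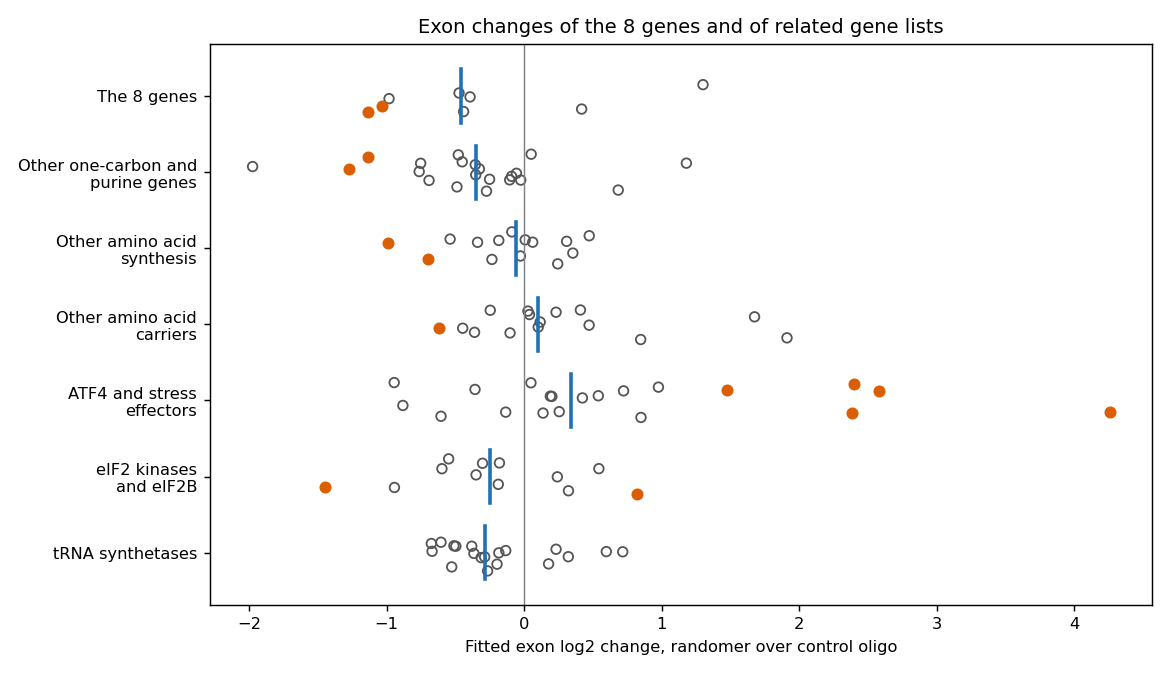
Fitted exon log2 changes, randomer over control oligo, for the 8 genes and the genes of each of the 6 lists. Each gene has 1 point per list, filled where the edgeR adjusted p was under 0.05, with the list medians as vertical bars. NARS and GARS are in both the ATF4 effector and the synthetase list. The filled points of the ATF4 effector list lie above 0, and those of the member, one-carbon, synthesis and carrier lists below 0.

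By introns, 47.6% of all genes were called higher and 0.0501% lower. The calls in the lists were in the higher direction too: 5 of 26 one-carbon genes (median log2 change 1.14), 5 of 16 synthesis genes (1.24), 9 of 17 carriers (2.19), 7 of 15 stress effectors (1.27), 4 of 12 eIF2 genes (1.30) and 5 of 19 synthetases (1.12). Of these 6 medians only that of the carriers was above the all-gene median of 1.96. The member carriers lay on either side of it, SLC3A2 by 0.13 and SLC7A5 by -0.23.

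The genes whose exon profile over the 5 libraries was most like that of PSAT1 were MAT2B, ENOSF1 and TSPAN13. Likeness was the root mean square difference of centred log2 levels, 0.0893, 0.0907 and 0.104, among 6593 genes averaging 50 or more counts over the 5 libraries. MAT2B, a regulatory subunit of methionine adenosyltransferase, had 44.2 and 41.2 CPM with randomer, 90.4 and 105 CPM with control oligo, and 49.8 CPM in mock cells. Those nearest to the mean profile of the 8 genes were COTL1, NPEPPS and CD2AP, at 0.0274 to 0.0383. On the log2 scale that mean profile was at -0.14 and -0.29 with randomer, 0.20 and 0.06 with control oligo, and 0.17 in mock. It was thus lower in both randomer libraries than in the others, though the members did not all move alike.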

How the data were processed

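RNA-seq of 5 A549 libraries was used as whole-number counts per gene over exons and over introns, deposited by the authors. The submitters' processing notes name TopHat2, HTSeq and hg19, without versions, and do not say whether counting used the strand. From both sets of counts, 28 rows whose gene names had turned into dates were left out. Genes with at least 10 counts in at least 2 libraries were tested with edgeR 4.0.16 (quasi-likelihood, R 4.3.3) on the 4 oligo libraries, with oligo and time as terms and 1 residual degree of freedom, and Benjamini-Hochberg adjustment over all genes tested. SE is the fitted log2 change divided by the root of the F statistic. Library sizes were the exon counts of tested genes times TMM factors, for introns too. The intron-to-exon ratio was the interaction of read kind and oligo with each library as a block. Ratios of single libraries have exact Clopper-Pearson 95% intervals and levels exact Poisson ones. They cover counting error only, and not the spread between cultures or libraries, since each group was 1 library. PCR copies without molecular identifiers are not independent molecules, so the intervals can be too narrow even for counting error. DESeq2 1.42.0 and limma 3.58.1 were alternatives. Exon lengths, neighbours and pseudogenes came from GENCODE on GRCh38, not the files' build, so no gene coordinates of the files are given. Starts came from RefSeq (GRCh38.p14).

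The 8 genes and the 6 lists were chosen with earlier results of these data known, so their counts are descriptions, and no list was tested as a set. From each list, the 4 genes with the largest fitted exon change among those averaging 50 or more counts were named, and any others that passed the threshold, except 1 gene that is not reported here. Genes that the annotation places over a member or within 1 kb of it were named where the tables list them. The scripts were tested on simulated data. There the share of wrong calls by the ratio test was above its nominal rate. Changed genes there were few, with 57 of 11407 changed 2-fold in the exon test, and were drawn over all count levels. The shares recovered are therefore not those for the members or for the real data. Of true 2-fold changes, 10.5% were recovered by exons, 1.35% by introns and 0% by the ratio test. Of 4-fold changes, 41.1%, 21.0% and 18.4% were recovered, so a gene that did not pass can still have changed. Alternatives were other scalings (DESeq2 size factors, library totals, RN45S left out, the intron table's own TMM), no filter, DESeq2, no time term, mock added to the controls, and counts divided by 8. Leaving out each oligo library in turn, without the time term, was an alternative chosen after seeing the data.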

Additional observations from a re-analysis of the deposited data

Results flagged for a closer look

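SLC3A2 had exon log2 ratios of randomer over control oligo of -0.30 at 9 h and 1.14 at 16 h, so the single library of each group moved in opposite directions at the 2 times, and this difference was not tested. PSAT1 did the same by introns, standing at 0.64 at 9 h and -0.95 at 16 h on the same scale, which also was not tested. In both cases each value rests on 1 library per group, and the PSAT1 introns had 96 and 37 counts with randomer and 86 and 133 with control oligo.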

How the results depend on the processing

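No paired analysis was possible because the labels carry no replicate numbers, beyond the matching by time that the fits already hold as a term. All 8 exon changes kept their direction in every alternative run. Over all genes, exon calls were 95 lower with no time term, and 460 higher and 427 lower with counts divided by 8, where 5883 genes were tested, against 775 and 355 of 11407. Members called lower by exons numbered 1 with no time term and 1 with mock added. With the intron table's own TMM, intron calls were 1859 higher and 615 lower, against 5704 and 6, with 0 members higher and 4 lower; intron changes then reversed for PSPH (-0.13), SHMT2 (-1.16), MTHFD2 (-1.60) and ASNS (-1.55). Other lower intron counts were 3 with DESeq2 size factors, 29 with DESeq2, 15 with no time term, 10 with mock among the controls (ASNS -0.062) and 14 with counts divided by 8, where PSPH and SHMT2 introns had too few counts to be tested. With TMM of each table, ratio calls were 114 higher and 59 lower, against 3014 and 16, with 0 members, and changes reversed for PHGDH (-1.03), PSAT1 (-0.64), PSPH (-1.43), SHMT2 (-0.70), MTHFD2 (-1.15) and ASNS (-0.56). Lower ratios otherwise numbered 10 with no time term, 6 with mock among the controls and 2 with counts divided by 8. The cause of these shifts was not tested. Without the time term and 1 oligo library, chosen after seeing the data, exon calls ranged over 166 to 533 higher and 29 to 191 lower, intron calls over 2383 to 5456 and 1 to 13, and ratio calls over 0 to 1609 and 0 to 8, with edgeR calling 0 without randomer at 16 h (before adjustment, p was under 0.05 for 2376 higher and 51 lower). Members numbered 0 to 1 lower by exons, 1 to 2 higher by introns and 0 to 2 higher by ratio, with 0 to 0 in the other directions. Fitted changes then spanned 0 by introns for PSAT1 (-0.66 to 0.28), SHMT2 (-0.025 to 0.996), MTHFD2 (-0.38 to 0.52) and ASNS (-0.43 to 0.57), and by ratio for PSPH (-0.026 to 0.45) and MTHFD2 (-0.0093 to 0.98). Counts of 32 to 169 in the sparser members limit what their values can separate.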
